A study of Drosophila melanogaster with 3 samples.

Results

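The regions described here were 223 peaks from anti-GFP chromatin immunoprecipitation of the fly protein CG10565. They were chosen by position from 1143 peaks on the authors' optimal list, made with the irreproducible discovery rate (IDR). A peak was kept when its summit lay within 500 bp of a minus-strand and a plus-strand start site of 2 different protein-coding genes, with the minus-strand site on the left. The genes then point away from each other across the peak, an arrangement called a divergent promoter. Of the other IDR peaks, 371 had coding start sites within 500 bp on a single strand (called one-directional here), 2 had sites on both strands that did not diverge, and 547 had no coding start site in the window.

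All samples were whole Drosophila melanogaster embryos, 0 to 24 hours old and of pooled sexes. They came from a transgenic line that stably expresses CG10565 with eGFP at its C-terminal end. The labels list 3 biological replicates, numbered 1, 2 and 4, with chromatin sonicated to a size range of 200 to 800 bp. They form 1 group with no second genotype or treatment, so regions were compared with regions, and the replicates gave the spread. The protein was read through its tag, whole embryos mix all embryonic cell types, and the control library was not analysed here.

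CG10565 is the fly relative of DNAJC2, a human co-chaperone with a J domain that helps Hsp70 proteins fold chains leaving the ribosome and that has chromatin-linked roles too. In the compact genome of the fly many neighbouring genes are transcribed away from each other from start sites that share a short stretch of upstream DNA. Such shared stretches are often free of nucleosomes in fly cells, and many of them serve broadly expressed genes. The DNA replication-related element (DRE), bound by the factor Dref, and the overlapping core site of the insulator protein BEAF-32 are known elements of such promoters.

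Each value of a peak was the signal of the authors' peak caller, which ranks regions within a list and has no meaning across lists. The number of reads was not given in these lists, so the depth behind a peak is unknown. There were 30000 calls in the pooled list and as many per replicate. Their most common width was 370 bp (pooled and replicate 1), 350 bp (replicate 2) or 600 bp (replicate 4). A wider call holds a given summit more easily, so densities were counted with the calls' own summits.

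The DNA between the paired start sites of the members with the highest signal is printed first, because most summits described below fall in such DNA. Each run is the plus strand of release 6 (dm6) as RefSeq gives it, read 5′ to 3′ from the base after the minus-strand start site to the base before the plus-strand start site. The runs were taken by signal from members with start sites 40 to 300 bp apart, and no annotated exon overlaps them. The 11 capital bases are centred on the IDR summit, except in the first run, whose summit lay outside it.
Chro/Ssl1: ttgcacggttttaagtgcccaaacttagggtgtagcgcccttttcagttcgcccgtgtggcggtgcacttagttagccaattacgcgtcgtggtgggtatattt
Art3/mRpS10: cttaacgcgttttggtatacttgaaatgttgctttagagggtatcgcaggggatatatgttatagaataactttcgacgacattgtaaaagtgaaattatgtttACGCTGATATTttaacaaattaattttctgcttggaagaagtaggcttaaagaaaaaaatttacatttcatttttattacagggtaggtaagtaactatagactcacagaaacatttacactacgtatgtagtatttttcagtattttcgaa
Tcs5/CHMP2B: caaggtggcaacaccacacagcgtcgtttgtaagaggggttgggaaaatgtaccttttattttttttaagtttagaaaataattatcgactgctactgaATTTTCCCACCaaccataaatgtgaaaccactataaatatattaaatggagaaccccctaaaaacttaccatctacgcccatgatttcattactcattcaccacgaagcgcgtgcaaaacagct
Atat/Shc: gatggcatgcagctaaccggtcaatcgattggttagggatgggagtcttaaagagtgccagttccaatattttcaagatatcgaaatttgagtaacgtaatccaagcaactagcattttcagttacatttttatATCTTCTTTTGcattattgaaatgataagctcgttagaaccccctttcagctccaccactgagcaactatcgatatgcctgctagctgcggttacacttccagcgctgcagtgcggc
Mkk4/SLIRP2: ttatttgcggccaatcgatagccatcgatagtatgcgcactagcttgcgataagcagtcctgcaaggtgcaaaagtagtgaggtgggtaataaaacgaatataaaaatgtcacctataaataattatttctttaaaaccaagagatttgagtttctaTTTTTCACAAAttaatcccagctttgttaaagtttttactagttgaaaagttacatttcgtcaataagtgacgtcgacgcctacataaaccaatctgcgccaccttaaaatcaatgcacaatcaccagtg
Lon/PIG-F: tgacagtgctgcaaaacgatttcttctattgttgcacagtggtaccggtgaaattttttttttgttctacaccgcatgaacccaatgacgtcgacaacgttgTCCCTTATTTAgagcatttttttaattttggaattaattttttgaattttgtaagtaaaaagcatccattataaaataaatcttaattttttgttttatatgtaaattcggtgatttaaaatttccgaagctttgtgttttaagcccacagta
The first run, chr3L:22878985-22879088, separates Chro from Ssl1, and its peak summit lay on the left, inside Chro. The others lie at chr3R:15229409-15229664 (Art3/mRpS10), chr3L:5139396-5139618 (Tcs5/CHMP2B), chr3L:9426759-9427009 (Atat/Shc), chr3R:8650797-8651083 (Mkk4/SLIRP2) and chr3L:19612200-19612454 (Lon/PIG-F). In these 5 runs the capitals sit near the middle, with the summit between 105 and 163 bp from the left end. Their GC content ran from 30.1% in the Art3/mRpS10 run to 43.0% in the Atat/Shc run, and that of the Chro/Ssl1 run was 51.0%.

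The next 3 runs were the strongest further members with a DRE between their start sites, and the capitals mark that element, TATCGATA.
Gmd/CG3792: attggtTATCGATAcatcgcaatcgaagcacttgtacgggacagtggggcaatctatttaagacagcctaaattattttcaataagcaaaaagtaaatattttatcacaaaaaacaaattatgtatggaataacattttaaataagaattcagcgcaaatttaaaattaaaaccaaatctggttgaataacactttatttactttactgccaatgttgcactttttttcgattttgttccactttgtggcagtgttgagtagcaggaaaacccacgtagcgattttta
fws/Lamtor3: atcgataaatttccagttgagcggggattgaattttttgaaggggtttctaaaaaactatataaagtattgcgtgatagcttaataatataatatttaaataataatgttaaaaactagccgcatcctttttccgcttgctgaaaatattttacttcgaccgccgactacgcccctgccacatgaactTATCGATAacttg
RpS25/CG4820: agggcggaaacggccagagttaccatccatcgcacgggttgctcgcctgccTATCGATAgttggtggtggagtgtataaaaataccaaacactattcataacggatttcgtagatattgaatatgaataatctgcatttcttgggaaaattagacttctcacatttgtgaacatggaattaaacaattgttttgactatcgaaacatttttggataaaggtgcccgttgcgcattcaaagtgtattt
They lie at chr2L:4977024-4977311 (Gmd/CG3792), chr2L:17481030-17481230 (fws/Lamtor3) and chr3R:11216288-11216534 (RpS25/CG4820). In the Gmd/CG3792 run the element spans bases 7 to 14 and the summit is base 176, and in the fws/Lamtor3 run it spans bases 189 to 196 and the summit is base 69. In the RpS25/CG4820 run it spans bases 52 to 59, with the summit inside it at base 56. The Atat/Shc run also holds a DRE, at bases 202 to 209, away from its summit. The DRE is its own reverse complement and contains the BEAF-32 core, CGATA, on both strands, so every DRE is also counted as a BEAF-32 core.

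The member with the highest signal lay at the divergent promoter of Chro and Ssl1. Chro encodes a chromodomain protein of interbands and domain borders. Ssl1 belongs to TFIIH, the factor that opens promoter DNA for RNA polymerase II. Its signal was 813, and the calls that held its summit ranked 5, 6 and 3 in replicates 1, 2 and 4. The start sites of Chro (FBgn0044324) and Ssl1 (FBgn0037202) lie 105 bp apart. The summit, at chr3L position 22878887, fell 97 bp inside Chro and 202 bp upstream of Ssl1. All 3 replicates placed this region among their strongest 6 calls.

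The members ranked 2 and 4 flank genes of the mitochondrial small ribosomal subunit. The peak between mRpS10 and the arginine methyltransferase gene Art3 had a signal of 649 and ranked 11, 9 and 17 in replicates 1, 2 and 4. The peak between mRpS23 and CenG1A, an Arf GTPase-activating protein gene, had a signal of 551 and ranked 17, 18 and 14. Both were high in every replicate. They differed in layout, since the start sites of Art3 and mRpS10 lie 257 bp apart with the summit 110 and 147 bp from them, whereas those of mRpS23 and CenG1A lie 492 bp apart with the summit 97 bp upstream of CenG1A and 395 bp upstream of mRpS23.

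The third member had no call in one library. Its summit lay 164 bp upstream of the F-box gene Fbw5 and 30 bp inside CG9147, with a signal of 553. It ranked 10 in replicate 1 and 32 in replicate 4, and no call of replicate 2 held it. Mnat9/CG1792 behaved alike, with a signal of 354, ranks of 71 and 84 in replicates 1 and 4 and no call in replicate 2.

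Among the next members, Tcs5/CHMP2B had a signal of 516 and ranks of 21, 28 and 25 in replicates 1, 2 and 4. Tcs5 encodes a kinase of the complex that modifies tRNAs and CHMP2B a subunit of the membrane-remodelling ESCRT-III complex. The tank/CG12194 peak had a signal of 485 and ranks of 37, 21 and 43, with its summit 135 bp inside tank. Atat/Shc, named for a tubulin acetyltransferase and an adaptor of receptor tyrosine kinases, had a signal of 432 but ranked 203 in replicate 1, 14 in replicate 2 and 122 in replicate 4. Its rank therefore varied more than that of the 2 members before it.

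The remaining 13 of the 20 strongest members had signals from 325 to 421. In order they were CG8372/CG8360, CG5757/CG5098, Pdrg1/Pal1, CG5611/Mtl, Mkk4/SLIRP2, CG11309/CG7632, Lon/PIG-F, CG7601/CIA30, Pex11ab/CG8320, Reps/l(2)gd1, Mnat9/CG1792, Stt3A/bves and mRpL23/CG9004. Their genes include a kinase of the JNK pathway (Mkk4), a mitochondrial protease (Lon), an enzyme of GPI anchor synthesis (PIG-F), an assembly factor of respiratory complex I (CIA30) and a catalytic subunit of oligosaccharyltransferase (Stt3A). Of the 20 strongest members, 18 had the summit in a top call of every replicate, and the other two were those without a call in replicate 2. Only Stt3A/bves among the 20 is on the X chromosome.

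**Figure D1:**
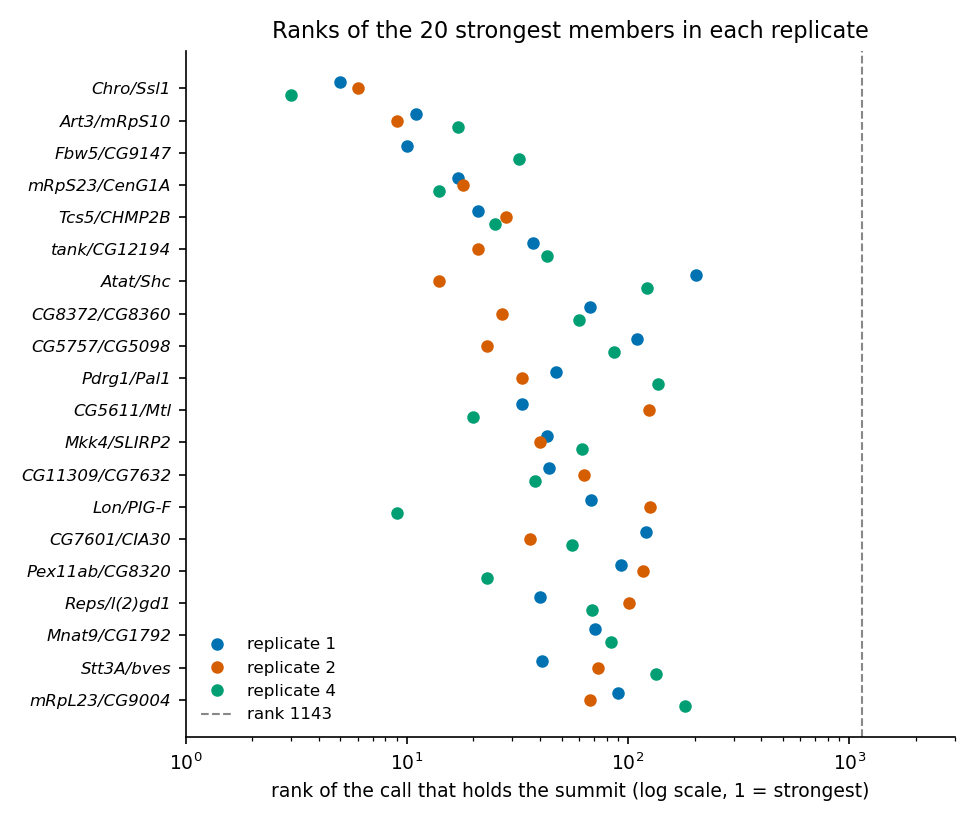
Rank of the replicate call that holds the summit, on a log axis where 1 is the strongest call, for the 20 members with the highest pooled signal. Each point is 1 replicate, the dashed line is rank 1143, and Fbw5/CG9147 and Mnat9/CG1792 have no point for replicate 2.

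At the low end of the list, the 5 weakest members had signals from 106 to 107, just above the weakest IDR peak of any kind. Mic26-27/CG5916 ranked 2564 and 364 in replicates 1 and 2 and had no call in replicate 4, and corolla/ND-24 ranked 2094, 859 and 1456 in replicates 1, 2 and 4. Mettl2/Bgb ranked 3037, 670 and 8174. Ras85D/Rlb1, next to the Ras oncogene homologue, ranked 1128 in replicate 1 and 2204 in replicate 4 with no call in replicate 2, and CG10077/CG9948 ranked 675, 4788 and 587. None of these 5 was a top call in every replicate.

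Divergent positions held more strong summits than one-directional positions of the same length. Positions that meet the divergent rule add up to 1.62 Mb and one-directional positions to 13.7 Mb. The IDR list had 137 summits per Mb in the first and 27.1 per Mb in the second, a ratio of 5.06. A divergent position lies near at least 2 start sites and a one-directional position near at least 1, which the ratio does not take into account.

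The same ratio was taken from each replicate list, with the strongest 1143 calls of each. Replicate 1 had 135 summits per Mb at divergent and 28.7 at one-directional positions, replicate 2 had 130 and 25.0, and replicate 4 had 128 and 28.1. The log2 ratios were 2.23, 2.38 and 2.19, with a mean of 2.27 ± 0.10 (SD, n = 3). Every replicate had the higher density at divergent positions, and the spread between replicates was small beside the ratio. The exact sign permutation test over the 3 replicates, two-sided, gave p = 0.25, the smallest value that 3 replicates allow. With upstream positions alone, the mean log2 ratio was 2.30 ± 0.15 (SD, n = 3; exact sign permutation p = 0.25).

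The ratio depended on the strength of the calls. In the pooled list it was 4.74 for ranks 1 to 250, 4.40 for ranks 251 to 500, 5.55 for ranks 501 to 1143 and 6.11 for ranks 1144 to 2500. It then dropped to 3.55 for ranks 2501 to 5000, 2.32 for ranks 5001 to 10000, 1.38 for ranks 10001 to 20000 and 0.884 for ranks 20001 to 30000. The ratio of the calls just under the IDR list was thus no lower than that of the IDR peaks, and the weakest calls were not denser at divergent positions. The 1151 weaker pooled calls at divergent positions that overlap no IDR peak gave 709 summits per Mb against 333 at one-directional positions, a ratio of 2.13.

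On the X chromosome the difference between divergent and one-directional positions was smaller. The IDR list had 152 summits per Mb at divergent positions of the autosomes and 26.2 at one-directional positions, but 55.6 and 31.7 per Mb on the X. Only 14 of the 223 members were on the X. The log2 ratios of the replicates were 2.42, 2.54 and 2.36 on the autosomes and 0.30, 1.48 and 0.83 on the X, in the order of replicates 1, 2 and 4. The autosomal value was higher in 3 of 3 replicates, by 1.57 ± 0.54 (SD, n = 3; exact sign permutation p = 0.25, the smallest possible).

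The X had a lower density than the autosomes at divergent positions and not at one-directional positions. At divergent positions the log2 ratio of the X over the autosomes was -1.37 ± 0.72 (SD, n = 3; exact sign permutation p = 0.25), while at one-directional positions it was 0.20 ± 0.19 (SD, n = 3; exact sign permutation p = 0.25). Weaker calls were as dense at divergent positions of the X, with 711 per Mb, as at those of the autosomes, with 708. The X was singled out after the values had been seen. The embryos were of mixed sex, and the part that the number of X copies plays in these values was not tested.

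**Figure D2:**
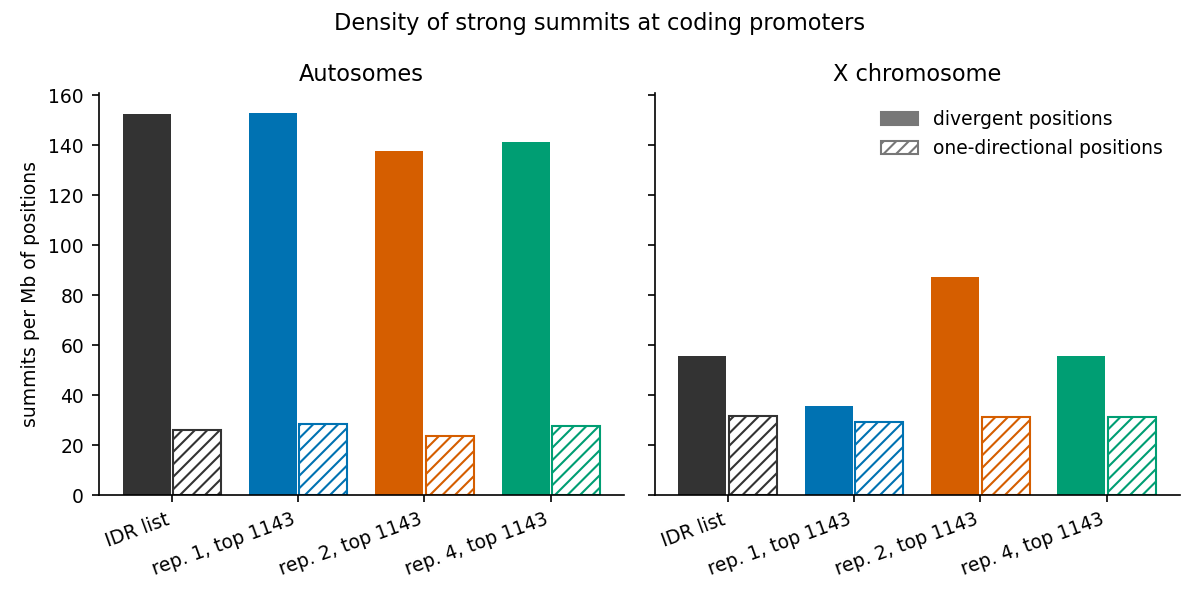
Summits per Mb at divergent (filled) and one-directional (hatched) positions for the IDR list and for the strongest 1143 calls of each replicate, on the autosomes and on the X. The filled bars run from 138 to 153 per Mb on the autosomes and from 35.7 to 87.4 per Mb on the X, and the hatched bars are of similar height in both panels.

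Of 13968 protein-coding genes, 5052 (36.2%) belong to a divergent pair with start sites less than or equal to 1000 bp apart. An IDR summit lay within 500 bp of both start sites for 466 of these genes, which is 9.22%, and within 500 bp of a start site for 5.93% of all coding genes (828 of 13968). Outside divergent pairs, 293 of 8916 genes (3.29%) had one. Counted as gene pairs, 255 of 2667 (9.56%) held an IDR summit, and 21 of these were pairs of transcription units of mod(mdg4) at 1 site. Pairs with overlapping intervals were therefore merged to 2463 sites, of which 224 (9.09%) held an IDR summit and 1276 (51.8%) any pooled call. Each member had a nearest pair of its own.

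Sites with start sites 201 to 400 bp apart carried strong summits most often. An IDR summit was found at 8.82% of sites 1 to 100 bp apart, 5.99% at 101 to 200 bp, 17.4% at 201 to 300 bp, 12.8% at 301 to 400 bp, 6.16% at 401 to 600 bp and 1.24% at 601 to 1000 bp. The rule itself limits the widest sites, where few positions are within 500 bp of both start sites. A fixed window of 301 bp around the midpoint was therefore searched in each replicate, which gives every site the same length. This window has a limit too, since at sites 401 to 1000 bp apart it leaves out the DNA next to both start sites. Summits there are not counted, which can lower the share of the wide sites, and how far it does was not tested.

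In replicate 1 this window held a top call at 4.85% of sites 1 to 200 bp apart (95% Wilson interval 3.52 to 6.64), 14.3% of sites 201 to 400 bp apart (12.2 to 16.8) and 2.49% of sites 401 to 1000 bp apart (1.64 to 3.78). In replicate 2 the shares were 5.39%, 12.1% and 3.80%, and in replicate 4 they were 4.31%, 12.4% and 4.39%. The middle class was the highest in each replicate. It exceeded the narrow class by 8.08 ± 1.41 percentage points and the wide class by 9.37 ± 2.14 (SD, n = 3; 3 of 3 replicates for each; exact sign permutation p = 0.25 for each). Any pooled call, weak ones included, was counted by the other measure, a summit within 500 bp of both start sites. It was found at 44.2% of the narrow, 66.8% of the middle and 42.9% of the wide sites. This measure limits the widest sites, so these shares are not comparable with those of the fixed window.

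**Figure D3:**
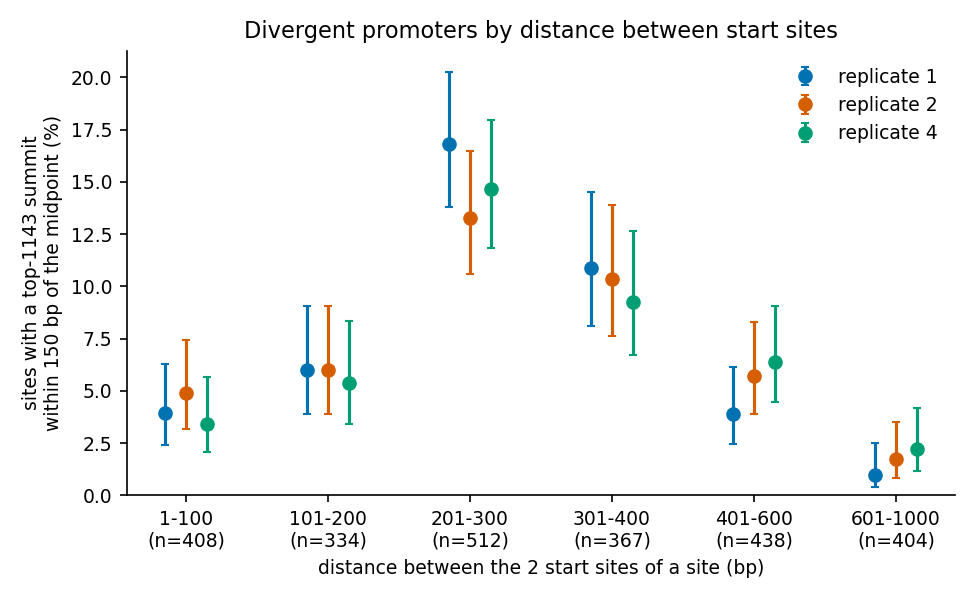
Percent of divergent sites with a summit of the strongest 1143 calls within 150 bp of the midpoint, by the distance between the start sites, for each replicate. Bars are 95% Wilson intervals, which cover counting error only. The 201 to 300 bp class is the highest in all 3 replicates (16.8%, 13.3% and 14.6%) and the 601 to 1000 bp class the lowest. In the 2 widest classes the window leaves out the DNA next to the start sites.

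The X differed in this class too. The X has 131 sites 201 to 400 bp apart and the autosomes 748. A top call lay at the midpoint of 0.763%, 1.53% and 3.82% of the X sites in replicates 1, 2 and 4, against 16.7%, 13.9% and 13.9% of the autosomal sites. The autosomal share was higher in each replicate, by 12.8 ± 2.95 percentage points (SD, n = 3; exact sign permutation p = 0.25). Any pooled call, counted within 500 bp of both start sites and not at the midpoint, was found at 56.5% of these X sites and 68.6% of these autosomal sites. At the midpoints, median GC content was 32.8% on the X and 29.9% on the autosomes, and the BEAF-32 core was present at 51.1% (95% Wilson interval 42.7 to 59.6) and 36.6% (33.2 to 40.1). The part of these sequence differences in the counts was not tested.

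Members on the X also had a different layout. Their start sites were a median of 420 bp apart, and 3 of 14 fell in the 201 to 400 bp class. The autosomal members had a median of 278 bp, with 144 of 209 in that class. The other arms had IDR summits at 54 of 481 sites (2L), 38 of 501 (2R), 52 of 478 (3L), 66 of 605 (3R) and 0 of 11 (chromosome 4, which allows up to 27.3%), and the X at 14 of 387. The X share was 3.62% (95% Wilson interval 2.17 to 5.98) and the share over the autosomes 10.1% (8.89 to 11.5).

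Most members had the summit between their start sites. This was so for 190 of 223 (85.2%, 95% Wilson interval 79.9 to 89.3), where 43.7% of the positions that the rule allows around these pairs lie between the start sites. The start sites were a median of 278 bp apart (quartiles 229.5 and 365). The summit lay a median of 140 bp upstream of the minus-strand site and 141 bp upstream of the plus-strand site. Its distance from the midpoint had a median of 44.5 bp. Weaker calls at divergent promoters lay between the start sites in 917 of 1151 cases (79.7%, 95% Wilson interval 77.2 to 81.9), against 52.7% of their allowed positions. The summit was upstream of the nearest start site for 192 members (86.1%) and for 337 of 371 one-directional IDR peaks (90.8%). An upstream summit was thus not particular to the members.

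The distance between the start sites changed this layout. With 201 to 400 bp between them, 142 of 147 members had the summit between the start sites and the median distance from the midpoint was 37 bp. With 401 to 1000 bp, 36 of 36 lay between them, but 90.4% of the allowed positions do so in that class. With 1 to 200 bp, 12 of 40 lay between them, against 9.93% of the allowed positions. The 33 members with the summit outside had it inside the 5′ part of a gene of the pair and a median of 139 bp upstream of the start site of the other gene.

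The summits of the replicates' own calls had the same layout. They lay between the start sites for 84.8% of the members in replicate 1 (189 of 223), 82.8% in replicate 2 (168 of 203) and 84.5% in replicate 4 (186 of 220). Their median shift from the IDR summit was 15, 19 and 33 bp, with the largest shift in the replicate with the widest calls.

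**Figure D4:**
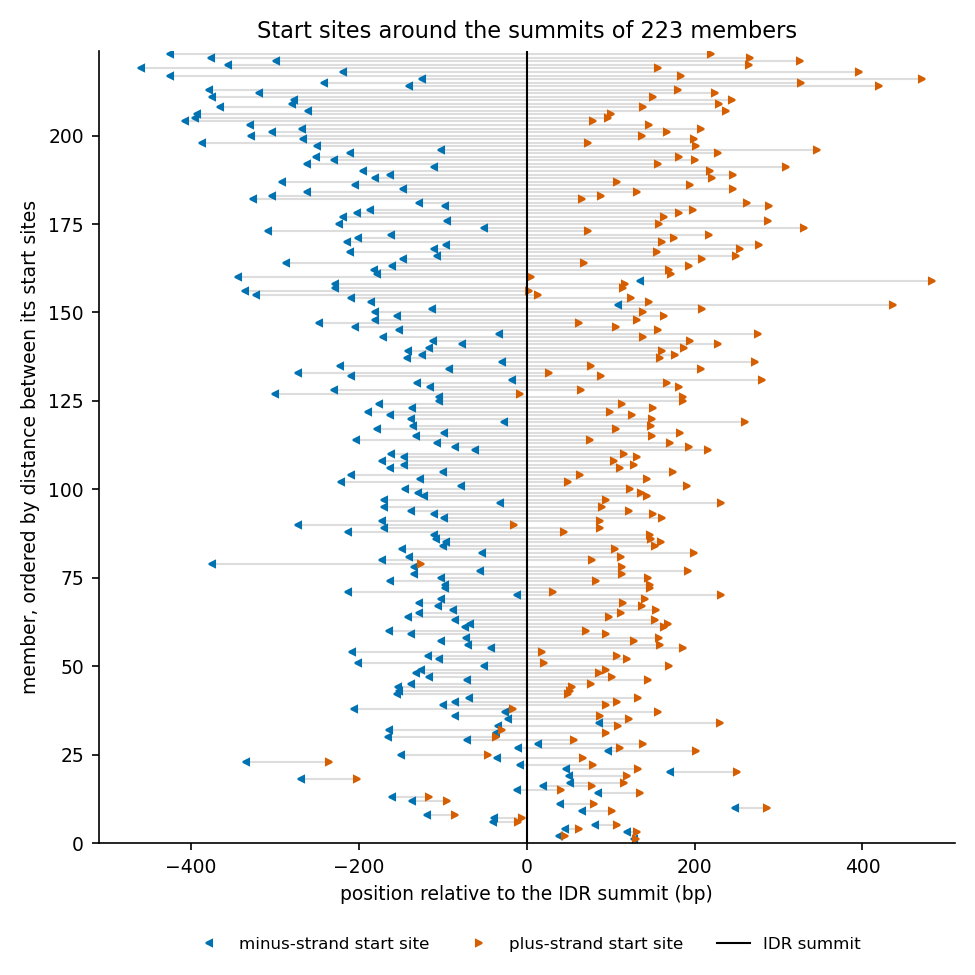
Position of the minus-strand and plus-strand start site of each of the 223 members relative to its IDR summit at 0, with members ordered by the distance between the start sites. Grey lines join the start sites of a pair. For most members the summit lies between the start sites, and 28 of the 33 exceptions have start sites less than or equal to 200 bp apart, at the bottom.

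The ends of the range show both layouts. The smallest distance, 2 bp, was at dpa/didum, which encode a subunit of the MCM replicative helicase and myosin V. Its signal was 122, it ranked 3887, 393 and 3783 in replicates 1, 2 and 4, and its summit lay 128 bp inside dpa and 130 bp upstream of didum. The largest, 645 bp, was at dpr14/spidey on the X, with a signal of 128 and ranks of 945, 617 and 1472. Its summit lay 425 bp and 220 bp upstream of the start sites.

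Near the 500 bp limit the members were few and of mixed signal. Just inside were tank/CG12194, whose farther start site was 483 bp from the summit, CG14968/ZnT63C at 471 bp (signal 165), lin-52/CG15771 at 459 bp (signal 130) and CG8188/par-6 at 437 bp (signal 139). Just outside were pyx/CG33229 at 528 bp (signal 128), CG10804/CG10802 at 549 bp (signal 145), CG12402/Or88a at 568 bp (signal 125) and PNPase/Gprk2 at 574 bp (signal 632). The PNPase/Gprk2 peak, which had a higher signal than all but 2 of the members, ranked 8, 13 and 18 in replicates 1, 2 and 4.

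The replicates supported the members about as often as other IDR peaks. The summit lay in a top 1143 call of every replicate for 92 of the 223 members (41.3%, 95% Wilson interval 35.0 to 47.8), against 38.4% of all IDR peaks and 152 of 371 one-directional IDR peaks (41.0%, 36.1 to 46.0). Another 75 members were in the top calls of 2 replicates, 50 of 1 and 6 of none. The IDR list was made from these replicates, so this support is not independent of the choice of peaks. The members' median ranks were 622, 549 and 638 in replicates 1, 2 and 4, and those of one-directional IDR peaks were 546, 537 and 501.5. The members ranked lower by 74.8 ± 62.3 places (SD, n = 3; 3 of 3 replicates; exact sign permutation p = 0.25), a difference close to the spread between replicates. Without replicate 4 the difference was 44 places, and among the 571 strongest IDR peaks it was 13.5 places (exact sign permutation p = 0.5). With a window of 1000 bp it was 61.2 places (exact sign permutation p = 0.5).

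Ranks of the members agreed in part between replicates. Spearman's rho across members was 0.64 between replicates 1 and 4 (n = 220), 0.39 between replicates 1 and 2 (n = 203) and 0.40 between replicates 2 and 4 (n = 200). These are descriptions over regions that share their libraries. The steadiest ranks were those of GluProRS/AP-1sigma, at 646, 574 and 606 in replicates 1, 2 and 4. The widest spread was that of CG3434/CG44838, at 1418, 28757 and 332. Both were chosen after their values were seen.

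A call held the summit in every replicate for 200 members, and replicate 2 accounted for most gaps. Replicate 1 lacked 0 of the 223 members, replicate 2 lacked 20 and replicate 4 lacked 3. Of all 1143 IDR peaks, 1008 had a call in every replicate, and replicates 1, 2 and 4 lacked 7, 107 and 24. Of the 371 one-directional IDR peaks, replicate 2 lacked 27, so its gaps were not particular to the members. The 3 members without a call in replicate 4 were Wdr37/koko, Rab3GAP1/CG14352 and Mic26-27/CG5916. Beside Fbw5/CG9147, Mnat9/CG1792 and Ras85D/Rlb1, those without a call in replicate 2 were Gmd/CG3792, eIF4EHP/CG18428, Pss/Nubp2, M1BP/CG8202, elm/MED27, HP4/CG8209, Patsas/ThrRS, CG10584/Polr3E, qkr58E-3/PolE4, Dg/mRpL34, NiPp1/CG6805, gammaSnap1/sei, Sirt6/pont, Zaf1/CG14711, CG7810/CG7806, Gk1/CG13876 and NTPase/lilli. Of the 20, 11 were in the top 1143 calls of both other replicates. Gmd/CG3792, next to the gene of a GDP-mannose dehydratase, had a signal of 237 and ranked 148 and 171 in replicates 1 and 4, and eIF4EHP/CG18428, next to the gene of a cap-binding translational repressor, had a signal of 235 and ranked 121 and 135.

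GC content moved with these gaps. The 20 members without a call in replicate 2 had a median GC content of 29.1% in the 201 bp around the summit (range 15.9% to 36.8%), and the 203 with a call had 33.8% (range 20.9% to 53.7%). The lowest value, 15.9%, was at M1BP/CG8202, where M1BP encodes a factor that binds promoter Motif 1. Across the members, Spearman's rho between GC content and rank was -0.35 in replicate 2 (n = 203), 0.12 in replicate 1 (n = 223) and 0.08 in replicate 4 (n = 220), where a negative value means stronger calls at higher GC content. One-directional IDR peaks gave -0.35, 0.12 and 0.19 in replicates 2, 1 and 4. The part of base composition in the gaps was not tested.

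Genes of the cytosolic ribosome were the list with the highest share of members. Of 55 ribosomal protein genes in a divergent pair, 17 (30.9%, 95% Wilson interval 20.3 to 44.0) belonged to a pair with an IDR summit near both start sites, against 9.22% of all genes in divergent pairs. Outside divergent pairs, 10 of 37 ribosomal protein genes (27.0%) had such a summit near a start site, against 3.29% of all genes there. Both shares of this list were thus above their own background. RpS27/Nup37 had a signal of 283 and ranks of 214, 37 and 719 in replicates 1, 2 and 4. Ripalpha/RpL7 had a signal of 278 and ranks of 421, 103 and 74, and RpL32/CG7943 had a signal of 268 and ranks of 476, 65 and 144. Replicate 2 ranked most of the 17 higher than the other replicates did, RpS27 and RpL32 among them, but not RpL7, RpL34a or RpLP1.

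At these 17 promoters the IDR summit was nearer to the ribosomal protein gene than to its partner in every case. The median distance was 51 bp to the start site of the ribosomal protein gene and 192 bp to that of the partner. With the replicates' own summits it was nearer in 14, 15 and 12 of 17 cases in replicates 1, 2 and 4. The RpS25/CG4820 run printed above is an example, with the summit 56 bp from the RpS25 start site and 192 bp from that of CG4820. Mitochondrial ribosomal protein genes did not show this side, with the summit nearer to them in 4 of 9 cases.

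Mitochondrial ribosomal protein genes held 9 members among 58 genes in divergent pairs (15.5%, 95% Wilson interval 8.38 to 26.9), against the background of 9.22%. Outside such pairs the count was 0 of 15, which allows a share of up to 20% and so includes the 3.29% of all genes there. Beside mRpS10 and mRpS23, the third was mRpL23/CG9004, with a signal of 325 and ranks of 90, 67 and 181 in replicates 1, 2 and 4. Respiratory chain and ATP synthase genes held 6 of 43 (14.0%), led by the complex I gene in ND-ASHI/Fum1 (signal 204), followed by TppII/ND-MWFE and Afti/ATPsynE (signal 139 each). Aminoacyl-tRNA synthetase genes held 4 of 24 (16.7%), led by SerRS/CG17260 (signal 156), GluProRS/AP-1sigma (signal 152) and Hem/IleRS (signal 142). The intervals of these 3 lists are wide and include the background of 9.22%.

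Genes of the general transcription machinery and Mediator held 9 of 46 (19.6%, 95% Wilson interval 10.7 to 33.2). Outside divergent pairs the count was 0 of 19, which allows up to 15.8% and so includes the background of 3.29% there. Behind Ssl1 stood the RNA polymerase II subunit genes Polr2H (CG11247/Polr2H, signal 198, ranks 1977, 87 and 1048 in replicates 1, 2 and 4) and Polr2B (140up/Polr2B, signal 155, ranks 459, 570 and 411). The symbol list named for the cell cycle and replication held 4 of 30 (13.3%), which were Cdk1, the gene of a mitotic kinase (Cdk1/mRpS7, signal 150), RnrS (RnrS/CG34231, 142), Cdk12 (SAK/Cdk12, 132) and aurA. Cdk12 encodes a kinase of transcription, and the list leaves out other members with roles in replication or mitosis, such as dpa, PolD2, SMC2, Bub3 and SAK, so its share does not describe all genes of these processes. The interval of the first list lies just above the background of 9.22% and that of the second includes it, and no test over regions was made.

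The other lists were near or below the background of 9.22%. Vesicle traffic genes held 5 of 55 (9.09%), led by Fur1/Vps33B (signal 301, ranks 290, 152 and 54 in replicates 1, 2 and 4), Snx21/aph-1 (152) and Sec61alpha/Daxx (127). Splicing genes held 2 of 26 (7.69%), U2af50/PIG-Q (143) and snRNP-U1-C/gukh (115). Translation factors held 2 of 28 (7.14%), eIF4EHP and eIF1, and the proteasome 1 of 26 (3.85%), Rpn5 in Hat1/Rpn5 (116).

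Chromatin and insulator genes, matched by symbol, held 7 of 119 (5.88%, 95% Wilson interval 2.88 to 11.6). Chro had the highest signal of all members, but brm/Arl1, with the gene of the Brahma remodelling ATPase, had 242 (ranks 128, 418 and 110 in replicates 1, 2 and 4). Cp190/CG4338, with the gene of an insulator cofactor, had 164 (ranks 274, 1612 and 637). Thus the list held the member with the highest signal although its share lay below the background of 9.22%. Its interval includes that background. In 3 members both genes belonged to these lists, Chro/Ssl1, RpL28/eIF1 and Cdk1/mRpS7. The ferritin pair Fer1HCH/Fer2LCH, chosen after its values were seen because both genes encode subunits of 1 complex, had a signal of 236 and ranks of 482, 85 and 313.

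Short motifs were searched on both strands in the 201 bp centred on each summit, and at the midpoint for sites with no IDR summit. The DRE (TATCGATA) was found in 13 of 223 members (5.83%, 95% Wilson interval 3.44 to 9.72). It was found in 9.64% of weaker calls at divergent promoters, in 8.75% of divergent sites with no IDR summit, in 7.13% of those with start sites 201 to 400 bp apart, in 3.50% of one-directional IDR peaks and in 2.96% of weaker one-directional calls. The share among members lay between those of the other divergent sets and those of the one-directional sets, with overlapping intervals. The BEAF-32 core (CGATA) was found in 33.6% of members (95% Wilson interval 27.8 to 40.1), 45.3% of weaker divergent calls (42.4 to 48.2), 42.1% of divergent sites with no IDR summit and 29.1% of one-directional IDR peaks (24.7 to 33.9). At the divergent sites 201 to 400 bp apart with no IDR summit it was in 39.2% (35.7 to 42.7). The interval of members lay below that of weaker divergent calls and overlapped that of these unbound sites.

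For the next motifs the interval of members overlapped those of the other divergent sets, and no test of a difference was made. The GAGA element (GAGAG) was in 13.5% of members, 13.6% of weaker divergent calls, 13.3% of the sites 201 to 400 bp apart with no IDR summit and 14.1% of all divergent sites with no IDR summit, and in 25.9% of one-directional IDR peaks. The TATA box (TATAAA) was in 45.3%, 43.9%, 46.0% and 40.6% of these divergent sets and in 34.8% of one-directional IDR peaks. The initiator core (TCAGT) was in 27.8%, 27.8%, 28.0% and 31.1%, and in 37.5% of one-directional IDR peaks. The divergent and one-directional sets were not matched for the distance from summit to start site.

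For the remaining motifs the intervals of members overlapped those of weaker divergent calls. The E-box (CAGCTG) was in 13.0% of members, 11.3% of weaker divergent calls, 7.81% of the sites 201 to 400 bp apart with no IDR summit and 4.85% of one-directional IDR peaks. The Zelda site (CAGGTA) was in 6.73%, 4.00%, 2.96% and 3.50% of these sets, the Pho core (GCCAT) in 27.8%, 24.6%, 24.2% and 28.3%, Motif 1 core (GGTCACACT) in 2.24%, 5.13%, 2.56% and 1.08%, and A tracts (AAAAAAAA) in 14.8%, 11.7%, 14.9% and 12.7%. The CA repeat (CACACACA) was in 0 of 223 members, which allows a share of up to 1.35% at 3 counts and up to 1.69% by the 95% Wilson interval. It was in 1.74%, 1.62% and 1.62% of the other sets, whose Wilson intervals overlap that of members. Among all divergent sites with no IDR summit, the E-box was in 12.6%, close to the share of members. The Zelda site was in 3.26% of them (95% Wilson interval 2.60 to 4.08), against an interval of 4.12 to 10.8 for members. The Pho core, Motif 1 core, A tracts and CA repeat were in 25.6%, 4.87%, 12.8% and 1.38% of them. No test of these differences was made. Mean GC content was 33.6% in members, 33.8% in weaker divergent calls, 31.1% at the unbound sites 201 to 400 bp apart and 35.0% in one-directional IDR peaks.

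**Figure D5:**
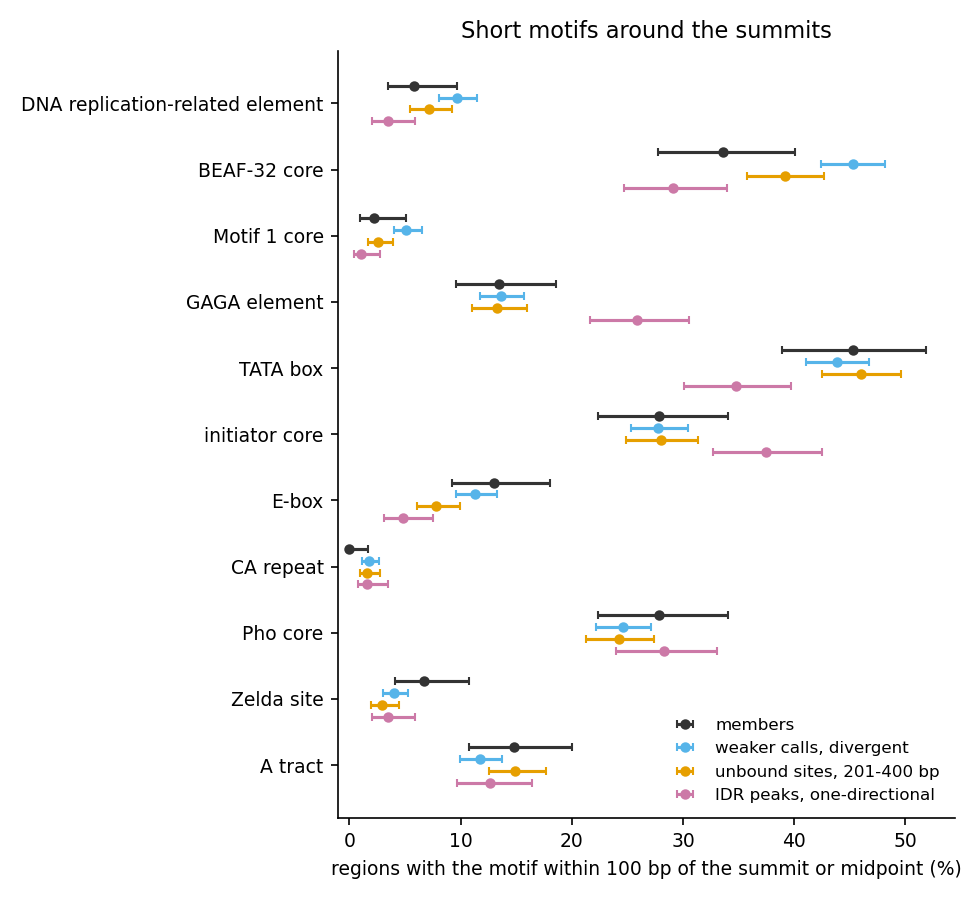
Percent of regions with each motif on either strand within 100 bp of the summit, or of the midpoint for sites with no IDR summit, in members, weaker calls at divergent promoters, unbound divergent sites with start sites 201 to 400 bp apart, and one-directional IDR peaks. Bars are 95% Wilson intervals. For the GAGA element, members are at 13.5% and one-directional IDR peaks at 25.9%, while the other divergent sets are at 13.6% and 13.3%.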

How the data were processed

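Chromatin from whole embryos of 1 group was profiled in 3 biological replicates, with groups and replicate numbers taken from the labels. The deposited dm6 lists give each call's interval, summit and signal, which is the authors' peak-caller value in a unit that has no meaning outside its list. Per the deposited description of the lists, calls were made in each replicate and in the pool, and the optimal list was then derived by IDR. For the aligner, the caller and the IDR cutoff, names and settings were not given in the sources used here. The dm3 lists were not used here. Calls lay within the arms of the RefSeq sequence, and start sites of 13968 coding genes came from Ensembl release 115.

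Python 3.11.15 with NumPy 2.4.6, pandas 2.3.3 and SciPy 1.17.1 was used. Calls were ranked by signal, and the top calls of a replicate were its strongest 1143. Only 1 test was used, the exact sign permutation over the 3 replicates, two-sided, which cannot go below p = 0.25. The labels name biological replicates but not separate cultures, so the spread may be in part technical. Intervals of shares are 95% Wilson intervals, cover counting error alone and take regions as independent. Depth is unknown. The density ratio was checked on simulated summits. The classes were checked by comparing separate codings on calls of the pooled list, and the test was checked on fixed numbers.

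Members, gene lists, motifs and named items were chosen with earlier results of these data known. Named items were the 20 members with the highest and the 5 with the lowest signal, members missing from a replicate, the 4 nearest on each side of the 500 bp limit, up to 3 members of each gene list, and the extremes of the distance between start sites. Gene lists were matched by symbol. Alternatives covered the window, the start sites used, the strength of calls, the motif window and each replicate left out. The X, the merging of pairs, the 200 bp split, GC content and the word scan were added after seeing the data.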

Additional observations from a re-analysis of the deposited data

How the results depend on the processing

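Of 60 alternatives, 47 were counted as leaving their result the same, 13 as moving it and 0 as reversing it. For the replicates' density ratio and rank difference, the same meant only that the mean kept its sign. Their mean log2 density ratio was 3.02 with a window of 250 bp and 1.62 with 1000 bp, and both counted as the same. Taking the strongest peak per pair could change nothing, since each member had a nearest pair of its own. The log2 density ratio of IDR summits was 3.19 with a window of 250 bp and 1.72 with 1000 bp. Among the 571 strongest IDR peaks there were 116 members, 141 gene pairs with a summit, and 70.7% of members in the top calls of every replicate. With both start sites required inside the peak, 85 members remained. Members in the top calls of every replicate made up 59.2% with 2 times as many replicate calls, and 46.6% to 55.6% with a replicate left out. Summits lay between the start sites in 79.1% with a single start site per gene and, in an alternative added after seeing the data, in 97.3% with start sites more than 200 bp apart. The DRE was found in 2.24% within 50 bp and 17.0% within 200 bp of the summit. The causes were not tested, although a stricter rule, fewer replicates or a longer window changes such counts by construction. No paired analysis was possible because there is 1 group. With 3 replicates no test could pass 0.05, and with no read counts the depth behind a call could not be judged.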

Other observations

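Of the 6-base words scanned around the member summits after the data had been seen, CCCTGC and the overlapping word ACCCTG were among those with the largest excess over unbound sites whose start sites lie 201 to 400 bp apart. CCCTGC, on either strand, was found within 100 bp of the summit in 22 of 223 members (9.87%), and in 2.56% of those unbound sites, 3.91% of weaker divergent calls, 5.12% of one-directional IDR peaks and 4.78% of weaker one-directional calls. ACCCTG was found in 8.97% of members and in 2.42%, 4.34%, 6.20% and 4.10% of the same sets. The words were picked for this difference, so the shares are a description and were not tested. CAGCAC was found in 16.6% of members and 7.00% of the unbound sites, but in 12.2% of weaker divergent calls.

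The fold by which divergent positions exceeded one-directional positions held down the lists to different depths in the 3 replicates. In ranks 1144 to 2500 it was 4.76 in replicate 1, 3.41 in replicate 2 and 4.16 in replicate 4. In ranks 10001 to 20000 it was 1.45, 0.860 and 1.69.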
